A study of Mus musculus with 4 samples.

Results

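The genes described are 8 members of the colony-stimulating factor system in embryonic mouse microglia: the receptor genes Csf1r, Csf2ra, Csf2rb, Csf2rb2, Csf3r, Il3ra and Flt3 and the ligand gene Csf1. They were chosen by gene name from the 18526 genes of the deposited tables. All 8 were listed for every library, and all 8 passed the low-count filter among 15236 tested genes.

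Microglia, which are tissue macrophages of the brain, were isolated by cell sorting from the telencephalon of C57BL/6 mice at embryonic day 14, and their RNA was sequenced. The labels give 2 samples of genotype Arid1acKO, a conditional knockout of the chromatin remodelling subunit Arid1a, and 2 of genotype Arid1afl/fl, the floxed control. Values were analysed for 3 libraries, Arid1a cKO replicate 2 (the knockout library) and control replicates 5 and 6, and cKO replicate 1 was not analysed here. The sources used here do not name the Cre line that deletes Arid1a or say whether a sample was 1 embryo or a pool. The p-values rest on the spread between control replicates 5 and 6, which may be technical, and hold no spread between knockout libraries. The knockout library has no replicate, and control values are mean ± SD with n = 2.

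Microglia depend for survival on the receptor tyrosine kinase CSF1R, which binds the cytokines CSF1 and IL-34. The receptors for GM-CSF, IL-3 and IL-5 each join a ligand-specific alpha chain (Csf2ra for GM-CSF, Il3ra for IL-3) to a signalling beta chain that acts through JAK2 and STAT5. The mouse has a common beta chain, Csf2rb, and a close copy, Csf2rb2, that serves IL-3 alone. Csf3r is the receptor for the neutrophil growth factor G-CSF, and Flt3, a kinase related to CSF1R, is known from blood progenitors and dendritic cell precursors.

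The libraries held 13774075 to 18608979 counted reads. Arid1a had 1258 reads in the knockout library beside 1952 in control 5 and 1760 in control 6, or 68.9, 109 and 130 CPM (reads scaled to the library total with a TMM factor), so the knockout was lowest, in the direction of its label (log2 fold change -0.80, SE 0.41, edgeR adjusted p = 0.901). All 14 genes of a microglia marker list were read in every library, and their summed level was 16381 CPM in the knockout library against 23995 in control 5 and 30489 in control 6. P2ry12, Tmem119 and Cx3cr1, which mark microglia, stood at 4073, 583 and 950 CPM in the knockout library against control means of 7843, 1901 and 2356. The other abundant markers Fcrls and C1qb stood closer to the controls, at 3238 against 3777 and 2643 against 4142 CPM, with log2 fold changes of -0.22 and -0.65. Of the 14 markers, 12 stood below both controls, as did 31.1% of all tested genes. Siglech and Sparc are named after their values were seen. Siglech was furthest below the controls, at 58.3 CPM against 918 and 1057 (log2 fold change -4.08). Sparc stood above both, at 1828 CPM against 1082 and 1367. In bulk RNA, fewer cells of a type and less RNA per cell cannot be told apart.

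The sequences of the paired beta chain genes are shown because they decide how far reads of Csf2rb and Csf2rb2 can be told apart. The coding sequences, taken from GENCODE M21 transcripts, are 2688 and 2634 bases long, are identical at 95.2% of 2628 aligned bases and share an unbroken run of 242 identical bases. The 60-base coding window where they differ most, at 13 bases, is given 5′ to 3′ with the differing bases in capitals, at positions 304 to 363 of Csf2rb and 307 to 366 of Csf2rb2, counted from the first base of the start codon.
Csf2rb: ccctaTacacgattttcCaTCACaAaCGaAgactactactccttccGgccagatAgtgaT
Csf2rb2: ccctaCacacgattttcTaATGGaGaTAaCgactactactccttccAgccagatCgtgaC
Over annotated transcripts, 12.3% of the distinct 50-base stretches of Csf2rb and 18.4% of those of Csf2rb2 occur in the other gene, and 4.63% and 6.82% of the 100-base stretches do. The read length is not given in the sources used here. Most of either gene is therefore distinguishable at these lengths. How the counting treated reads from the shared part was not tested.

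Il3ra and Csf2rb2, whose products form an IL-3 receptor, both stood above both controls, as did Csf2rb and 38.0% of all tested genes. For Csf2rb2 the knockout library was 1.59-fold above control 6, while the controls differed 7.41-fold. Csf2rb matched no promoter entry, so the promoters of Il3ra and Csf2rb2 are shown. Each is the 250 bases before the annotated start in RefSeq (GRCm38.p6), written 5′ to 3′ along the gene, with matches to the ETS-type cores GAGGAA and AGGAAGT in capitals on either strand. Il3ra lies on the plus strand (chr14:14346245-14346494) and Csf2rb2 on the minus strand (chr15:78305722-78305971).
Il3ra: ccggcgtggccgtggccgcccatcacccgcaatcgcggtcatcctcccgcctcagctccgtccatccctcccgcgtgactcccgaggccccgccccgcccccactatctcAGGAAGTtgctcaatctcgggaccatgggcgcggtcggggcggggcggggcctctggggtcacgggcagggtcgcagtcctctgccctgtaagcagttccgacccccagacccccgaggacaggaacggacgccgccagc
Csf2rb2: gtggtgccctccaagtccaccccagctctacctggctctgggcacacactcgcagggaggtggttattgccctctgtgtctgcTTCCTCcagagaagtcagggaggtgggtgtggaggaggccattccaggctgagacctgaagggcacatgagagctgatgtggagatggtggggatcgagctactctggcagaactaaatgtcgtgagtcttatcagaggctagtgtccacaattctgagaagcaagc
The letters GAGGAA occurred in 1 place in Csf2rb2, and in 23.3% of 32851 mouse promoters of this length. AGGAAGT, which can overlap GAGGAA, occurred in 1 place in Il3ra and in 7.7% of promoters. Il3ra also held TTGCNNAA, the C/EBP form (9.6% of promoters), and Csf2rb2 held TTCNNNGAA, the STAT form (7.0%). Of 8 members, 6 matched a promoter entry. In these, GAGGAA was also found in Csf2ra and Csf3r, and the RUNX letters TGTGGT (14% of promoters) in none. These matches were searched on both strands with the sequences in view, and they describe letters, not sites.

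Among the 8 genes, Csf1 stood lowest in the knockout library relative to the controls and Il3ra and Csf2rb2 highest, while Csf1r lay between the controls. The knockout library stood above both controls for 3 members (Il3ra, Csf2rb2 and Csf2rb), below both for 4 (Csf1, Flt3, Csf3r and Csf2ra) and between them for 1 (Csf1r). Flt3, Csf3r, Csf2ra and Csf1r do not keep these positions when each library is scaled to its microglia marker reads. Over all tested genes 38.0% stood above both controls and 31.1% below both, so 69.1% lay outside the controls, beside 7 of the 8 members. In 0 of the 8 did the edgeR test pass an adjusted p of 0.05, where it called 0.0394% of all tested genes. At an unadjusted p under 0.05 there were 2 members, against 6.00% of all tested genes: Il3ra, higher, as 2.46% of genes were, and Csf1, lower, as 3.54% were. With a filter of 5 CPM in at least 2 libraries, edgeR called 0 of the 6 members tested and 0.457% of genes. The DESeq2 Wald test called 1 member, Csf1, and 1.93% of genes. In that test Il3ra did not reach an unadjusted p under 0.05. The median log2 fold change of the 8 was -0.29, beside 0.05 over all tested genes.

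**Figure D1:**
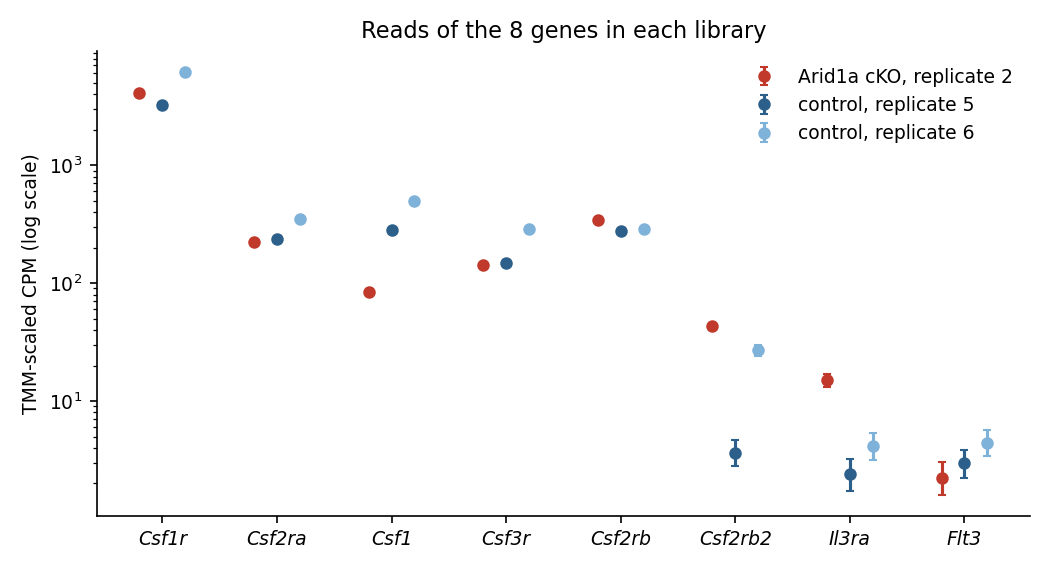
TMM-scaled CPM (log axis) of the 8 genes in the knockout library and in control replicates 5 and 6, with exact Poisson 95% intervals, which are narrower than the points for abundant genes. Csf1 is lowest in the knockout library at 84.8 CPM against 283 and 493, while Csf1r at 4101 CPM lies between 3237 and 6134.

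Csf1 (ENSMUSG00000014599, chromosome 3, 107741048 to 107760469, minus strand, GRCm38), the ligand of CSF1R, had 1549 reads in the knockout library compared with 5066 in control 5 and 6655 in control 6. This was 84.8 CPM (exact Poisson interval 80.6 to 89.1) against 283 (275 to 291) and 493 (481 to 505). The knockout library was the lowest and its interval lay apart from those of both controls, which differed from each other 1.74-fold. The knockout level was 3.34-fold below control 5 and 5.82-fold below control 6, and 4.58-fold below the control mean of 388 ± 149 CPM. The log2 fold change was -2.19 (SE 0.47), with an unadjusted p of 0.00173 and an adjusted p of 0.274 in edgeR, so the difference did not pass. In DESeq2's Wald test the adjusted p was 7.86e-05, and over 6 edgeR alternatives it ranged from 0.0956 to 0.538. Csf1 was also 1 of the genes 2-fold or more below both controls, as were 6.92% of all tested genes.

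Csf1r (ENSMUSG00000024621, chromosome 18, 61105572 to 61132149, plus strand), the receptor for this ligand, was by far the most abundant member, with 74908 reads in the knockout library beside 57944 in control 5 and 82778 in control 6. Its levels were 4101 CPM (4071 to 4130), 3237 (3210 to 3263) and 6134 (6092 to 6176). The controls differed 1.90-fold, more than the knockout library differed from either, at 1.27-fold above control 5 and 1.5-fold below control 6. The log2 fold change was -0.19 (SE 0.40, edgeR adjusted p = 1.00). Its direction depends on control 6, since the log2 ratio was 0.35 without that library and -0.58 without control 5. Of the exon bases of Csf1r, 15.1% are covered by Hmgxb3 on the opposite strand, and the library kit does not mark strand. Hmgxb3 had 513, 123 and 229 reads. Its part in the Csf1r values was not tested.

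The ratio of receptor to ligand reads within a library does not depend on scaling. There were 48.4 Csf1r reads per Csf1 read in the knockout library against 11.4 in control 5 and 12.4 in control 6. The controls thus lay close together on this ratio although both genes were higher in control 6, and the knockout library lay well above them. Per length of exon the ratios were 44.2, 10.5 and 11.4. With 1 knockout library this ratio was not tested.

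**Figure D2:**
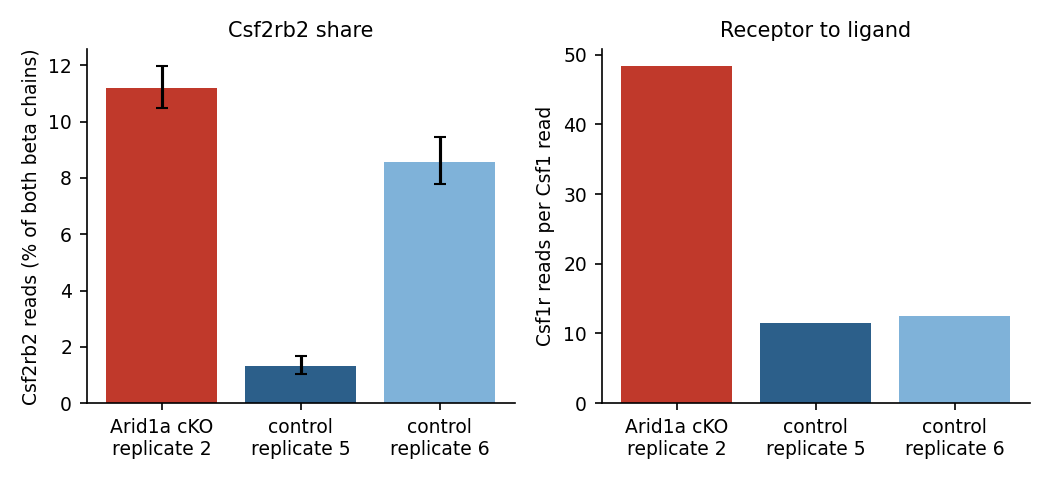
Left, Csf2rb2 reads as a percentage of the reads of both beta chain genes in each library, with Wilson 95% intervals (counting error only). Right, Csf1r reads per Csf1 read in each library, which was 48.4 in the knockout library and 11.4 and 12.4 in the controls.

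Il3ra (ENSMUSG00000068758, chromosome 14, 14346495 to 14355490, plus strand), the alpha chain that binds IL-3, had 273 reads in the knockout library compared with 43 in control 5 and 56 in control 6. These gave 14.9 CPM (13.2 to 16.8), 2.40 (1.74 to 3.24) and 4.15 (3.13 to 5.39). The knockout library was the highest, apart from both controls, whose intervals overlap. It stood 6.22-fold above control 5 and 3.60-fold above control 6, a log2 fold change of 2.19 (SE 0.87) with an unadjusted p of 0.0353 and an edgeR adjusted p of 0.799. It was the 1 member 2-fold or more above both controls, as were 9.23% of all tested genes.

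Csf2rb2 (ENSMUSG00000071714, chromosome 15, 78282517 to 78305603, minus strand), the IL-3-specific beta chain, had 783 reads in the knockout library beside 65 in control 5 and 363 in control 6. Its levels were 42.9 CPM (39.9 to 46.0), 3.63 (2.80 to 4.63) and 26.9 (24.2 to 29.8). Control 5 stood far below the other libraries: the controls differed 7.41-fold from each other, while the knockout library was 1.59-fold above control 6 and 11.8-fold above control 5. The log2 fold change of 1.49 (SE 0.94, edgeR adjusted p = 0.959) becomes 0.67 without control 5 and 3.53 without control 6.

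Csf2rb (ENSMUSG00000071713, chromosome 15, 78325990 to 78351000, plus strand), the common beta chain of the GM-CSF, IL-3 and IL-5 receptors, varied least. It had 6200, 4915 and 3869 reads, or 339 CPM (331 to 348) in the knockout library against 275 (267 to 282) in control 5 and 287 (278 to 296) in control 6. The knockout library was the highest, the controls differed 1.04-fold, and the log2 fold change was 0.27 (SE 0.34, edgeR adjusted p = 1.00). Csf2rb2 reads made up 11.2% of all beta chain reads in the knockout library (Wilson 95% interval 10.5 to 12), 1.31% in control 5 (1.03 to 1.66) and 8.58% in control 6 (7.77 to 9.46). The share was highest in the knockout library, but most of the spread lay between the controls.

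Csf2ra (ENSMUSG00000059326, chromosome 19, 61224402 to 61228418, minus strand), the alpha chain for GM-CSF, had 4100, 4216 and 4711 reads in the knockout library, control 5 and control 6. It stood at 224 CPM (218 to 231), 235 (228 to 243) and 349 (339 to 359), so the knockout library and control 5 overlapped in their intervals and control 6 was high. The log2 fold change was -0.38 (SE 0.40, edgeR adjusted p = 1.00). Per exon length, there was 15.5 times as much Csf2ra as Il3ra in the knockout library, 101 times as much in control 5 and 86.9 times as much in control 6. The alpha chain for GM-CSF was thus the more abundant in all 3 libraries, and by least in the knockout library.

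Csf3r (ENSMUSG00000028859, chromosome 4, 126024550 to 126044440, plus strand), the G-CSF receptor, had 2576, 2639 and 3878 reads, or 141 CPM (136 to 147), 147 (142 to 153) and 287 (278 to 297) in the knockout library, control 5 and control 6. As for Csf2ra, the knockout library and control 5 had overlapping intervals and control 6 stood apart, at 1.95-fold above control 5. The log2 fold change was -0.62 (SE 0.48, edgeR adjusted p = 0.993), and -0.06 without control 6. Of its 50-base stretches, 10.7% recur in other transcripts, against 0.38% of its 100-base stretches.

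Flt3 (ENSMUSG00000042817, chromosome 5, 147330741 to 147400489, minus strand) was the rarest member, with 41 reads in the knockout library against 53 in control 5 and 60 in control 6. Its levels of 2.24 CPM (1.61 to 3.04), 2.96 (2.22 to 3.87) and 4.45 (3.39 to 5.72) had intervals that overlapped between the knockout library and control 5 and between the controls. At this depth a difference was not detectable (log2 fold change -0.72, SE 1.39, edgeR adjusted p = 1.00).

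**Figure D3:**
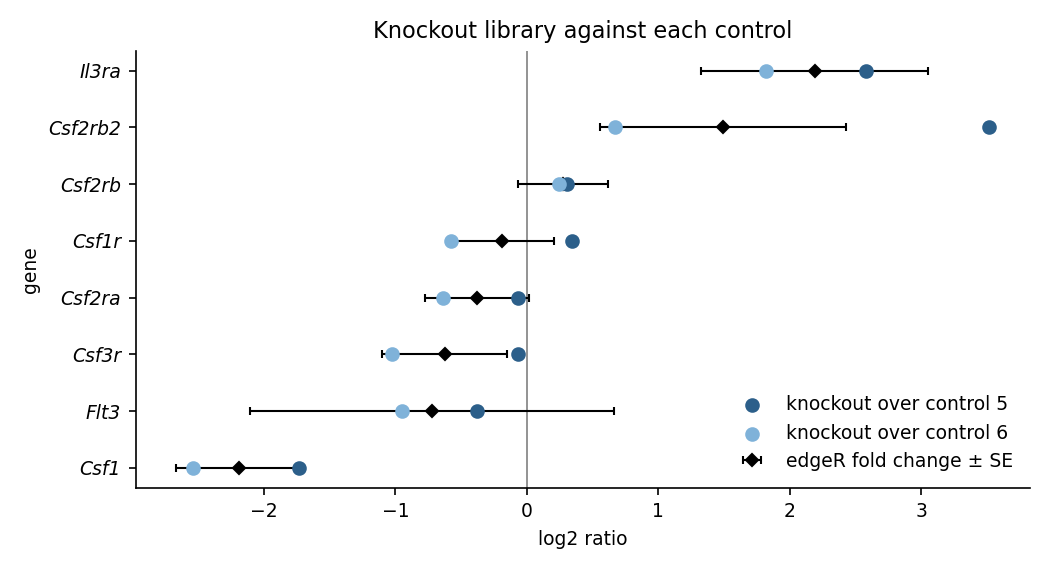
Log2 ratio of the knockout library over control 5 and over control 6 for each gene, with the edgeR log2 fold change ± SE as diamonds. Csf1 lies well below 0 and Il3ra well above 0 against either control, the ratios for Csf2rb2 are far apart, and those for Csf1r have opposite signs.

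All 8 members were higher in control 6 than in control 5. How many of all tested genes share this order was not counted, so it is not read as a trait of the members. In the control means, levels per kilobase of exon ran from Csf1r (811 ± 355 CPM per kb) through Csf2ra (102 ± 28.0), Csf1 (73.5 ± 28.1), Csf3r (60.2 ± 27.4), Csf2rb (38.6 ± 1.18), Csf2rb2 (3.22 ± 3.47) and Il3ra (1.10 ± 0.417) to Flt3 (0.6 ± 0.170). The control ranges of Csf2ra and Csf1 overlapped, as did those of Csf1 and Csf3r and those of Csf2rb2 and Il3ra, but Csf2ra stood above Csf1 and Csf1 above Csf3r in each control library. Il3ra and Csf2rb2 changed places between the controls, so these neighbours did not differ beyond their spread. In the knockout library Csf1 came in place 5 at 16.1 CPM per kb, behind Csf2rb at 46.6 and Csf3r at 39.1, while it held place 3 in each control. Csf1r was first and Flt3 last in each library. Among the receptors, Csf1r exceeded Csf2ra, the next in order, in every library, at 710 against 78.2 CPM per kb in the knockout library.

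Since most microglia markers were lower in the knockout library, the members were also set against the summed reads of the 14 markers, a scaling chosen after the data were seen. Csf1 had 5.18 reads per 1000 marker reads in the knockout library compared with 11.8 in control 5 and 16.2 in control 6, and was still below both controls. Csf1r had 250 per 1000 marker reads against 135 and 201, and Csf2ra had 13.7 against 9.81 and 11.4, so both stood above both controls on this scale. Csf3r (8.61 against 6.14 and 9.43) and Flt3 (0.137 against 0.123 and 0.146) lay between them. The log2 ratio over the control mean was 0.57 for Csf1r, 0.37 for Csf2ra, 0.15 for Csf3r and 0.03 for Flt3, the opposite sign to the TMM-scaled value for each, and -1.43 for Csf1. For Csf2rb, Csf2rb2 and Il3ra it was 0.99, 2.34 and 2.95.

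The authors' deposited tables compare the knockout library with each control in turn and so share that library. In the authors' deposited table against control 5, the fold change was 0.330 for Csf1, 6.84 for Il3ra and 13.0 for Csf2rb2, each marked significant by the authors. In the authors' deposited table against control 6 it was 0.186 for Csf1 and 3.89 for Il3ra, both marked significant, and 1.72 for Csf2rb2, which was not marked.

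Other growth factor ligand genes, not all of them for these receptors, were rare or have no values here. Of a list of 10 ligand genes, 3 were tested and 0 were called. Kitl, the ligand of the stem cell receptor KIT, had 107 reads in the knockout library beside 301 in control 5 and 148 in control 6 (5.86, 16.8 and 11.0 CPM), lowest in the knockout library. Flt3l, the ligand of FLT3, had 38, 16 and 42 reads, with the knockout library between the controls. Il34, which encodes the other ligand of CSF1R, was not analysed here, nor were Csf2, Csf3, Il3, Il5, Thpo and Epo.

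Among 14 tested genes for other cytokine and growth factor receptors, 0 were called, and the median log2 fold change was 0.27. Of the 14, 8 stood above both controls and 2 below both, beside 38.0% and 31.1% of all tested genes. Epor, the erythropoietin receptor, had 3.07 CPM in the knockout library against 25.6 in control 5 and 32.2 in control 6. The Il7r gene for the IL-7 receptor alpha chain had 79.8 CPM against 20.3 and 15.1, and Il2rg, the shared gamma chain, had 70.6 against 24.1 and 21.9. For these 3 the knockout library stood apart from both controls in the named direction (edgeR adjusted p 0.263, 0.263 and 0.477). Il4ra had 188 CPM against 55.6 and 142, a spread carried mostly by control 5.

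Downstream of CSF1R, 28 of 28 listed adaptors and effectors were tested and 0 were called. Of these, 14 stood above both controls and 7 below both, beside 38.0% and 31.1% of all tested genes. The median log2 fold change was 0.18. Dok3, an adaptor that restrains signalling of immune receptors, had 196 CPM in the knockout library against 34.4 in control 5 and 50.5 in control 6 (log2 fold change 2.2, SE 0.41, edgeR adjusted p = 0.164). Fyn, a kinase of the SRC family, had 8.87 CPM against 59.7 and 20.5 (adjusted p = 0.698). Sos1, which activates RAS, had 18.7 against 51.2 and 29.9, and Pik3r1, the regulatory subunit of PI3 kinase, had 62.3 against 95.6 and 114. The knockout library was the highest for Dok3 and the lowest for Fyn, Sos1 and Pik3r1.

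In the JAK and STAT module of the GM-CSF and IL-3 receptors, 12 of 13 listed genes were tested and 0 were called, with a median of 0.19. Stat5b, a transcription factor activated by the beta chains, had 28.6 CPM in the knockout library against 7.76 in control 5 and 17.1 in control 6, and Jak2, their kinase, had 19.4 against 16.7 and 8.30. Mcl1, a survival gene, had 265 against 239 and 147, and Socs2, a feedback inhibitor, had 3.18 against 11.7 and 2.07. The knockout library was the highest for the first 3 of these and between the controls for Socs2. Of the 12 tested genes, 6 stood above both controls and 2 below both, beside 38.0% and 31.1% of all tested genes.

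Of 17 listed transcription factors linked to myeloid receptor genes, 15 were tested and 0 were called, with a median of -0.23. In the knockout library 4 stood above both controls and 7 below both, beside 38.0% and 31.1% of all tested genes. Ets2 had 97.6 CPM in the knockout library against 45.7 in control 5 and 37.0 in control 6 (edgeR adjusted p = 0.654), and Tfec, of the MITF family, had 75.1 against 36.4 and 43.6. Klf4 had 27.5 against 97.5 and 40.2, and Egr2, an early response gene, had 212 against 316 and 381. Spi1, which encodes PU.1, an activator of Csf1r and other myeloid receptor genes, is named after its values were seen: it had 144 CPM against 122 and 55.6. Ets2, Tfec and Spi1 were highest in the knockout library, and Klf4 and Egr2 lowest.

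**Figure D4:**
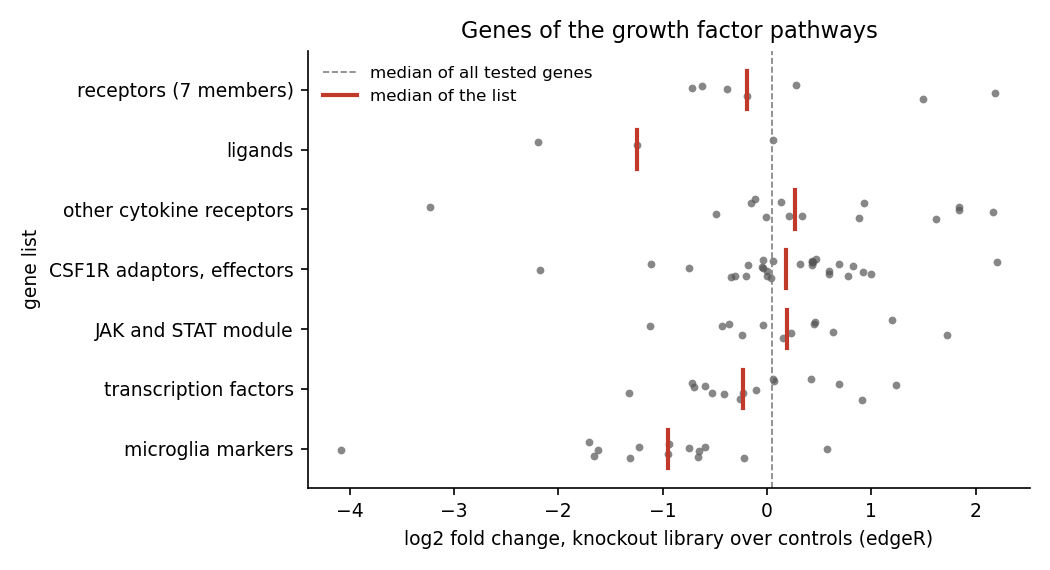
Log2 fold change of each tested gene (points, spread vertically for display) in 7 lists, with the list median as a red bar and the median of all tested genes, 0.05, as a dashed line. Medians were -0.19 for the receptors, -1.25 for the 3 ligands, 0.27, 0.18, 0.19 and -0.23 for the other pathway lists and -0.94 for microglia markers.

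Markers of other cells that carry these receptors were read beside them. For eosinophils, basophils and mast cells, which use IL-3 and IL-5, the 9 of 13 listed genes found in both tables summed to 173 CPM in the knockout library against 70.0 in control 5 and 113 in control 6. Without Siglecf, a sum taken after the data were seen, the other 8 genes gave 54.1, 48.3 and 54.7 CPM. Of the 9 genes, 5 stood above both controls and 3 below both, beside 38.0% and 31.1% of all tested genes. Cpa3 (23.1, 0 and 13.7 CPM) and Mcpt8 (5.58, 0 and 1.26), named after their values were seen, kept the order of the full sum. Hdc, Prg2, Prg3 and Fcer1a did not. Listed genes found in a single table were lower in the knockout library. Epx had 0 reads there against 60 in control 5. Against control 6, Ms4a2 had 2 reads beside 45 and Il5ra 0 beside 8. Of the 9 genes, 5 (Cpa3, Hdc, Mcpt8, Gata2 and Gata1) were at 0 in control 5. Gata2 and Gata1 were also at 0 in control 6, and Prg3 and Fcer1a in the knockout library. Siglecf had 119 CPM in the knockout library against 21.7 and 57.9, Hdc had 19.4 against 0 and 23.4, and Prg2 went the other way, with 4 reads against 794 and 203. Their part in the Il3ra and Csf2rb2 values was not tested.

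For neutrophils and their precursors, the cells best known for Csf3r, the 10 of 13 listed genes found in both tables summed to 155 CPM in the knockout library compared with 218 in control 5 and 103 in control 6. Csf3r was highest in control 6, where this sum was lowest and Cxcr2, a gene of the same list, was highest. The part of these cells in the Csf3r values was not tested. Ngp had 63.3, 82.4 and 0.889 CPM, Ltf had 40.1, 32 and 1.85, and Cxcr2 had 7.66, 73.6 and 83.1, while Mpo, Prtn3 and Mmp9 were at 0 in control 5. The 6 monocyte genes summed to 198, 163 and 221 CPM, with Ccr2 at 93.0, 120 and 138 and Plac8 at 68.9, 14.7 and 31.7, and Chil3 was at 0 in both controls. The 8 of 12 progenitor and dendritic cell genes found in both tables, Flt3 among them, summed to 209, 183 and 218 CPM, mostly from Cd34 (188, 146 and 167), with Meis1 at 11.2, 22.0 and 23.3 and Itgax at 0.657, 6.59 and 18. Kit was at 0 in control 5, Zbtb46 in the knockout library and Cd209a in control 6.

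Neuronal and neural progenitor genes (7 of 8) summed to 459, 429 and 450 CPM, with Stmn1, Nes and Neurod6 at 176, 97.0 and 41.8 CPM in the knockout library. Endothelial and mural genes (7 of 7) summed to 38.4, 44.1 and 51.9 CPM, with Kdr, Rgs5 and Pecam1 at 14.3, 9.25 and 3.89 CPM in the knockout library. Their part in the members' values was not tested.

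The genes whose levels moved most like a member over the 3 libraries were named by the distance between centred log2(CPM + 1) profiles, among 6011 genes at a mean of 20 CPM or more. Nearest to Csf1r were Trmt12, Exog, Ankle2, Abcc3 and Il6ra (distances 0.01 to 0.04), and 27 genes lay within 0.1. Nearest to Csf2rb were Rabif, Gnpda1, Ppp1ca, B2m and Ppox, with 165 genes within 0.1. Nearest to Csf1 were Sema4a (10.4 CPM in the knockout library beside 35.6 in control 5 and 61.0 in control 6), Tanc2, Slc2a5, Cbfa2t3 and Paqr4, and 1 gene lay within 0.1. With 3 libraries, a centred profile has 2 free values, and no test was made of these matches.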

How the data were processed

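Per the labels' protocols, total RNA (2 µg) of sorted microglia was made into libraries with a TruSeq RNA kit. Tools named are TopHat2 2.0.12, Bowtie2 2.2.3 and HTSeq 0.6.0, with genome build mm9, per the submitters' processing notes. The deposited gene positions are those of GRCm38 (90.0% identical to GENCODE M21). The authors deposited 2 tables of raw read counts per gene, with CPM in which a count of 0 became 0.5 reads. The authors also deposited fold changes (as a ratio and as its log2) and p-values, whose test is not given in the sources used here.

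Counts of the 16655 genes in both tables were analysed with edgeR 4.0.16 (R 4.3.3): filterByExpr, TMM, a quasi-likelihood F test with 1 residual degree of freedom, which comes from the controls, and Benjamini-Hochberg adjustment over 15236 genes at 0.05, two-sided. DESeq2 1.42.0 was an alternative. Each SE is the fold change over the root of its F statistic. Log2 ratios over single controls, and the 2-fold counts drawn from them, used a prior count of 2. Fold values over single controls are plain CPM ratios. Intervals are at the 95% level and cover counting error only. Exon lengths and overlaps came from GENCODE M21. Each length is that of the merged exons of all annotated transcripts of a gene, so levels per kilobase depend on it. The fit was tested on simulated data.

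Members and lists were chosen with earlier results of these data known. The rule named every member. From each pathway list it took genes that passed the test and up to 4 others of lowest p whose mean reached 5 CPM. From marker lists it took the 3 most abundant, of which 1 is not reported here, and also Cx3cr1, P2ry12 and Tmem119. Alternatives were other scalings, filters and tools, and leaving out each control.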

Additional observations from a re-analysis of the deposited data

How the results depend on the processing

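Over the 7 other settings that gave a test, every member kept the direction of its TMM-scaled log2 fold change, and Il3ra and Flt3 could not be fitted under the filter of 5 CPM in 2 libraries. The DESeq2 Wald test called 1 member (Csf1, log2 fold change -2.20), and the 6 edgeR alternatives called 0. Over all genes edgeR called 6. It called 0 without a low-count filter, with upper-quartile factors or with size factors from DESeq2 (948, 818 and 895 at an unadjusted p under 0.05), 8 with library totals, 10 with genes of either table and 44 under the filter of 5 CPM in 2 libraries, and DESeq2 called 222. Of all listed genes, 1 (Siglech, lower) was called. This became 0 without a filter or with either of those factors, 3 under the 5 CPM filter and 10 with DESeq2's test. The cause was not tested. Library totals moved the median of all genes from 0.05 to 0.17. Without a control, 1 library met 1 and no test was possible; log2 ratios then ranged from -0.58 to 0.35 for Csf1r, -2.54 to -1.73 for Csf1, -0.64 to -0.07 for Csf2ra, 0.24 to 0.31 for Csf2rb, 0.67 to 3.53 for Csf2rb2, -1.03 to -0.06 for Csf3r, 1.82 to 2.59 for Il3ra and -0.95 to -0.38 for Flt3. No paired analysis was possible because the knockout and control samples share no replicate number. Precision is limited by the single knockout library, and for Flt3 and Il3ra also by read number.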
